A study of Mus musculus with 28 samples.

Results

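Adherens junctions and the area composita of the mouse heart were followed at the RNA level through 10 genes, namely Cdh2, Ctnnb1, Ctnna1, Ctnna3, Vcl, Tln2, Tjp1, Cxadr, Xirp1 and Xirp2. The 10 were picked by name from the 39152 gene symbols counted, and all 10 passed the filter on low counts in both ventricles. Libraries came from 28 pieces of left (LV) or right ventricle (RV) of 16 C57BL6 mice, and 12 of the mice gave both ventricles. All mice carried Pkp2 fl/fl. WT mice were littermates without Cre that received HBSS vehicle (5 LV and 3 RV libraries). The other mice carried αMyHC-Cre-ER(T2), a tamoxifen-inducible Cre driven by a heart muscle promoter, so that deletion was limited to heart muscle cells. They received HBSS (cKO, 4 LV and 4 RV) or TN-401, an AAV9 vector that carries human PKP2. TN-401 was injected once into the retro-orbital sinus 1 week before tamoxifen, at 3E13 vg/kg (4 LV and 2 RV) or 6E13 vg/kg (3 LV and 3 RV). The mice were adults by the study's methods, and the ages of single mice were not used here. The study gives a single collection time, but its source data list the HBSS-treated cKO mice as dead by the last recording. Time of collection and genotype therefore cannot be told apart in the cKO group. Neither can time of collection and TN-401 where treated groups are compared with cKO.

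At the intercalated disc, N-cadherin molecules of neighbouring cardiomyocytes bind each other and hold β-catenin and an α-catenin on their inner side, which link the junction to actin. Vinculin reinforces this link, and both vinculin and talin serve integrin-based contacts. In the adult heart, adherens junctions and desmosomes mix into a hybrid junction called the area composita. There αT-catenin binds plakophilin-2, the desmosomal protein encoded by Pkp2, and the Xin-repeat proteins bind catenins and actin. The tight junction scaffold ZO-1 and the receptor CAR lie at the same disc.

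Library depth was 19364764 to 39381176 counts. Mouse Pkp2 was at 108 to 127 CPM (counts relative to a TMM-scaled library size) in WT LV and at 30.8 to 56.9 CPM in cKO LV. The human PKP2 transcript of the vector was counted 0 times without TN-401 (every WT and cKO library). In LV it lay at 172 to 377 CPM at 3E13 and at 345 to 553 CPM at 6E13. Its log2 difference between the doses did not pass in edgeR, at 0.48 ± 0.28 (SE) in LV (adjusted p = 0.969) and 0.45 ± 0.23 in RV (adjusted p = 0.654). A count of 0 allows up to 3 counts, which is at most 0.155 CPM, counting error only. Mitochondrial genes held 33.48% to 37.02% of counts in WT LV and 18.17% to 26.75% in cKO LV, and 35.73% to 39.63% against 15.0% to 23.21% in RV. The cKO LV library of animal 177 stood apart from its group, with the lowest share of these. In RV, the cKO libraries of animals 180 and 257 held the atrial gene Myl7 at 82.0 and 45.1 CPM, against at most 2.08 CPM in the other cKO RV libraries. Summed cardiomyocyte markers, led by sarcomere and calcium genes, were at 43900 to 50010 CPM in WT LV and 10890 to 34200 CPM in cKO LV, with 5 of 8 lower. In RV they were at 37000 to 49880 and 10380 to 26290 CPM, with 7 of 8 lower. Summed fibroblast markers were at 535 to 644 CPM in WT LV and 1841 to 3795 CPM in cKO LV, with 6 of 7 higher, and at 583.5 to 693 and 3204 to 6651 CPM in RV, with 7 of 7 higher. No marker of either list was at 0. In such bulk tissue, fewer cardiomyocytes and less RNA per cardiomyocyte cannot be told apart.

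In WT LV the 10 genes spanned a wide range of abundance per transcript length. In TPM (transcript abundance corrected for length and depth, mean ± SD, n = 5), Cdh2 was at 98.9 ± 6.81, Xirp2 at 89.7 ± 11.4, Ctnna1 at 75.9 ± 5.87 and Ctnnb1 at 69.4 ± 4.97. A middle group followed with Vcl at 27.3 ± 2.16, Xirp1 at 23.97 ± 3.35, Tjp1 at 21.6 ± 2.11 and Ctnna3 at 21.5 ± 2.60 TPM. Cxadr at 8.17 ± 1.39 and Tln2 at 4.21 ± 0.369 TPM were the least abundant. Neighbours within the first group, and within the middle group, differed by less than the sum of their SDs. Ctnnb1 and Vcl, Ctnna3 and Cxadr, and Cxadr and Tln2 differed by more. In WT RV (n = 3) Xirp2 stood below both catenins Ctnna1 and Ctnnb1, at 59.2 ± 14.6 TPM against 73.4 ± 5.51 and 65.3 ± 4.15, and again the spreads met.

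On TMM-scaled counts, the cKO differences from WT went in both directions in LV. In LV, 4 of 10 fell in cKO against WT (Cdh2, Ctnna3, Tln2 and Cxadr) and 3 rose (Vcl, Xirp1 and Xirp2) at an adjusted p under 0.05 in edgeR. Ctnnb1, Ctnna1 and Tjp1 did not pass. Across all genes tested in LV 35.7% passed, and the median log2 difference was -0.21 over the 10 genes and 0.05 over all genes. In RV Cdh2, Ctnna3, Tln2 and Cxadr fell and none of the 10 rose, with 37.2% of all genes past the test, a median of -0.29 over the 10 and 0.06 over all. The directions depend on how the libraries are scaled. In the deposited TPM values, which include the mitochondrial transcripts, the median of all genes shifted by 0.37 (LV) and 0.54 (RV) on log2(TPM + 1), and on that scale Cdh2 in LV and Cdh2, Tln2 and Cxadr in RV turned to values above 0. All of these stayed below the median of all genes. The levels by library show how far the groups overlapped for each gene.

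**Figure D1:**
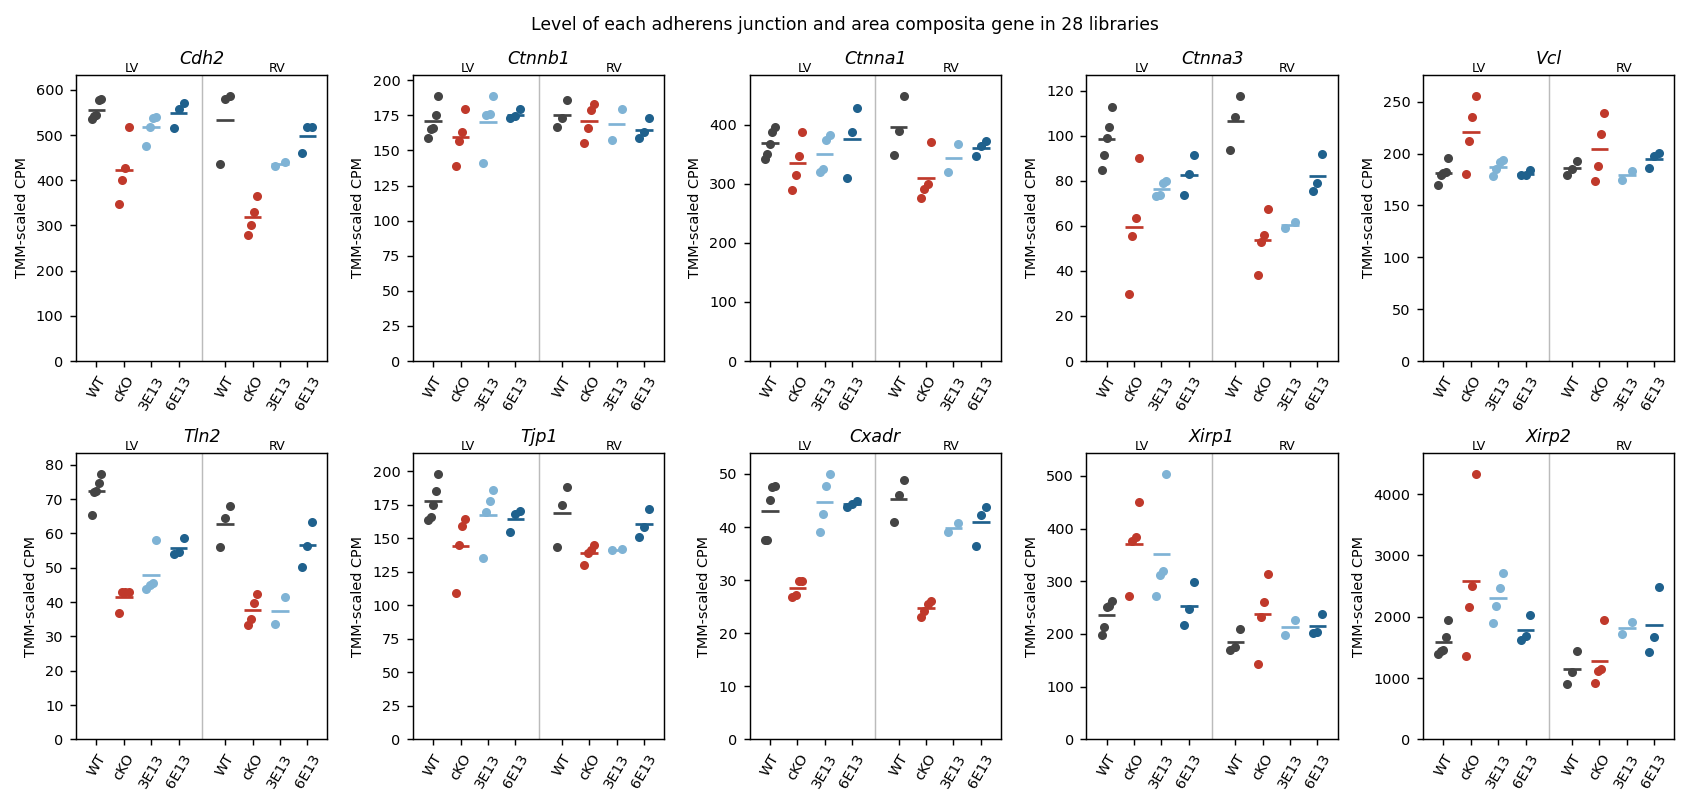
TMM-scaled CPM (linear axis from 0) of each of the 10 genes in each of 28 libraries, by group, LV left and RV right of the grey line. Points are libraries and bars are group means. Cxadr and Tln2 in cKO lie below every WT library in both ventricles (in RV both differences turn above 0 on log2(TPM + 1)), Ctnnb1 overlaps throughout, and Xirp2 in cKO LV ranges from 1366 to 4329 CPM.

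Cdh2 encodes N-cadherin, the cadherin of this junction. It was at 536, 542, 545, 577 and 580.5 CPM in WT LV and at 347, 400.5, 426 and 518 CPM in cKO LV, so that every cKO library lay below every WT library. The log2 difference was -0.38 ± 0.11 (SE; adjusted p = 0.0169), and it turned to 0.17 ± 0.11 on log2(TPM + 1), with an adjusted p of 0.233. With mitochondrial and non-coding genes left out and TPM rescaled, it was -0.24 ± 0.09 (adjusted p = 0.0468). In RV, WT libraries had 436, 579 and 587 CPM and cKO libraries 279.8, 300.4, 329.7 and 365 CPM, again without overlap. This was a difference of -0.72 ± 0.15 (adjusted p = 0.00222), and 0.14 ± 0.13 on log2(TPM + 1).

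Ctnnb1, which encodes β-catenin (chr9:120757422-120789579, plus strand, GRCm39), did not separate the groups. WT LV libraries had 159, 165, 166, 175 and 189 CPM and cKO LV libraries 139, 157, 163 and 179 CPM. The cKO differences of -0.09 ± 0.10 in LV (adjusted p = 0.528) and -0.01 ± 0.10 in RV (adjusted p = 0.935) were no larger than their errors. On log2(TPM + 1) they were 0.47 ± 0.13 and 0.85 ± 0.17, both past the test there, beside the shift of all genes on that scale. Ctnna1 encodes αE-catenin, the α-catenin found in most tissues. It was at 342 to 396 CPM in WT LV and 289 to 388 CPM in cKO LV, which overlapped, with a difference of -0.13 ± 0.12 (adjusted p = 0.454). RV libraries were at 348, 388 and 449 CPM in WT and at 276, 290.4, 299.8 and 371 CPM in cKO, a difference of -0.33 ± 0.14 that missed the threshold in edgeR (adjusted p = 0.0916). DESeq2 called it lower in RV. Its log2(TPM + 1) values were 0.42 ± 0.10 for LV and 0.54 ± 0.12 for RV, past the test on that scale.

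Ctnna3 encodes αT-catenin, the α-catenin of muscle that binds plakophilin-2 (chr10:63265877-64846348, plus strand, GRCm39). It showed the lowest RV difference of the 10 on TMM-scaled counts, within error of that of Cxadr at -0.85 ± 0.10. In LV it was at 84.6, 91.5, 99.3, 104 and 113 CPM in WT and at 29.9, 55.4, 63.4 and 90.1 CPM in cKO. The groups met only where the highest cKO library, of animal 180, passed the lowest WT library. The difference was -0.71 ± 0.22 (adjusted p = 0.0187). In RV the groups did not overlap, with 93.9, 108 and 118 CPM in WT and 38.1, 53.1, 56.1 and 67.3 CPM in cKO, a difference of -0.97 ± 0.17 (adjusted p = 0.00076). It was below 0 on log2(TPM + 1) in both ventricles, at -0.29 ± 0.16 and -0.17 ± 0.12, where neither passed the test.

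RefSeq lists 3 start sites of Ctnna3, and promoter windows are printed for the genes whose RNA fell or rose where RefSeq gave one and it was searched. Cdh2 was left out of the search. Each window runs from 250 bases before to 50 bases after a start site, in the GRCm38.p6 build, an earlier build than the GRCm39 of the counts. Both strands were searched for the MCAT element (CATTCC, bound by TEAD factors), the E-box (CANNTG), the GATA site (AGATAA), the CArG box (bound by serum response factor) and the MEF2 site. Capitals mark the matches. Of 32851 mouse windows, 14.7% held an MCAT element, 72.3% an E-box, 11.2% a GATA site, 1.63% a CArG box and 3.19% a MEF2 site. The window at chr10:63429848-63430147 held none of the 5 motifs. The window at chr10:63457261-63457560 held 1 MCAT element and the window at chr10:63820805-63821104 held 2 E-boxes. Both are printed from the plus strand, on which the MCAT element reads in its complementary form, GGAATG:
Ctnna3 at chr10:63457261-63457560: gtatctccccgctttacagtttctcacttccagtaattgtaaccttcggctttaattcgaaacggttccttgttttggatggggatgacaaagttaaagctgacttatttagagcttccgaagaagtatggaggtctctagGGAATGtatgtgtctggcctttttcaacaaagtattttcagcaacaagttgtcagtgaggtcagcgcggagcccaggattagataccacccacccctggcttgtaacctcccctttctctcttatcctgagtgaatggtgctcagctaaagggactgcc
Ctnna3 at chr10:63820805-63821104: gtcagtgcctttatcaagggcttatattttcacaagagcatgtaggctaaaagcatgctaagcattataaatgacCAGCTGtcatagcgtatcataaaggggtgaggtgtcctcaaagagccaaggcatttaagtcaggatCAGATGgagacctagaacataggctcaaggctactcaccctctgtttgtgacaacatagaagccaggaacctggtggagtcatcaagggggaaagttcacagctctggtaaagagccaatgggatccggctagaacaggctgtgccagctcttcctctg

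Vcl encodes vinculin, which binds α-catenin and talin and strengthens the tie to actin (chr14:20979449-21083758, plus strand, GRCm39). It was at 169, 179, 182, 182 and 196 CPM in WT LV and at 181, 212, 235 and 256 CPM in cKO LV. The lowest cKO library, of animal 257, lay within the WT range and the other 3 above it. The difference was 0.29 ± 0.09 (adjusted p = 0.0235), and the call was lost without cKO animal 177 or 264 or WT animal 647. RV levels were 179.5, 185 and 192 CPM in WT and 174, 188, 218 and 239 CPM in cKO, a difference of 0.16 ± 0.12 (adjusted p = 0.335). On rescaled log2(TPM + 1) without mitochondrial and non-coding genes, Vcl passed the test in RV too, at 0.42 ± 0.11 (adjusted p = 0.00879). The promoter window of Vcl, at chr14:20929148-20929447 of GRCm38.p6, plus strand, held 1 CArG box and 1 MCAT element, also in the form GGAATG, and none of the other motifs:
Vcl at chr14:20929148-20929447: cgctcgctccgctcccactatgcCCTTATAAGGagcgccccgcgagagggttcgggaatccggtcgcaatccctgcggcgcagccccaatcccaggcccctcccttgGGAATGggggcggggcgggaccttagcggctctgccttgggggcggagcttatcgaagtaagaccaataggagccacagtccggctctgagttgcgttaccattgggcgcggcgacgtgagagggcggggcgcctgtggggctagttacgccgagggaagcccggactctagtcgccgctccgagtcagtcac

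Tln2 encodes talin-2, the talin of adult heart muscle (chr9:67124369-67466985, minus strand, GRCm39), and its LV fall was the largest of the 10 on TMM-scaled counts, within error of that of Ctnna3, which was the lower on both TPM scales. It was at 65.5, 71.9, 72.3, 74.8 and 77.3 CPM in WT LV and at 36.8, 42.9, 42.9 and 43.0 CPM in cKO LV. The cKO libraries lay close together and far below WT, a difference of -0.80 ± 0.09 (adjusted p = 1.9e-05). RV libraries were at 55.9, 64.4 and 68.1 CPM in WT and 33.3, 35.1, 39.7 and 42.4 CPM in cKO, also without overlap. The RV difference was -0.72 ± 0.13 (adjusted p = 0.0009), and it turned to 0.12 ± 0.16 on log2(TPM + 1).

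Tjp1 encodes ZO-1, a scaffold that ties junction proteins and connexins to actin (chr7:64945898-65177529, minus strand, GRCm39). It was at 164 to 198 CPM in WT LV and at 109, 145, 159 and 164 CPM in cKO LV. The difference of -0.29 ± 0.12 missed the threshold (adjusted p = 0.0866), as did that in RV, -0.26 ± 0.11 (adjusted p = 0.0833), and on log2(TPM + 1) they were 0.22 ± 0.13 and 0.55 ± 0.16, the latter past the test. Cxadr encodes CAR, an adhesion receptor of the immunoglobulin family named after the coxsackievirus and adenovirus that use it (chr16:78098377-78159153, plus strand, GRCm39). It was at 37.5, 37.6, 45.1, 47.5 and 47.8 CPM in WT LV and at 26.9, 27.1, 29.8 and 29.9 CPM in cKO LV. In RV it was at 41.0, 46.0 and 48.9 CPM in WT and 23.02, 24.2, 25.5 and 26.004 CPM in cKO. Neither ventricle showed overlap, and the differences were -0.59 ± 0.10 (adjusted p = 0.00037) and -0.85 ± 0.10 (adjusted p = 7.4e-05). On log2(TPM + 1) they were 0.00 ± 0.15 and, turned, 0.08 ± 0.13, while the rescaled values without mitochondrial and non-coding genes were -0.40 ± 0.13 (adjusted p = 0.0244) and -0.51 ± 0.12 (adjusted p = 0.00385).

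Xirp1 and Xirp2 encode the Xin-repeat proteins of the intercalated disc, actin binders of striated muscle. Xirp1 (chr9:119842821-119852664, minus strand, GRCm39) was at 198, 213, 251, 252 and 262 CPM in WT LV and at 271, 376, 385 and 449.6 CPM in cKO LV. All cKO libraries lay above all WT libraries, a difference of 0.67 ± 0.18 (adjusted p = 0.00969). Its RV levels were 169, 176 and 210.0 CPM in WT and at 143, 232, 261 and 314 CPM in cKO, where the library of animal 177 was below the WT range and the others above it. That difference was 0.39 ± 0.22 (adjusted p = 0.183). Xirp2 (chr2:67004178-67356962, plus strand, GRCm39) was at 1393, 1441, 1455, 1675 and 1945 CPM in WT LV. In cKO LV it was at 1366, 2161, 2506 and 4329 CPM. The highest value was in animal 177 and the lowest cKO value, in animal 180, lay below WT. The difference of 0.72 ± 0.24 (adjusted p = 0.0306) fell to 0.35 on the log2 scale without animal 177 and no longer passed. The call was also lost without cKO animal 257 or WT animal 248, 626 or 647, and in a fit of only the 2 groups. In RV the difference was 0.18 ± 0.28 (adjusted p = 0.651), with 903, 1091 and 1439.9 CPM in WT and 913, 1109.9, 1144 and 1949 CPM in cKO. The promoter window of Xirp2, at chr2:67445752-67446051 of GRCm38.p6, plus strand, held 1 MEF2 site and 2 overlapping E-boxes, which are printed as a single run of capitals, and none of the other motifs:
Xirp2 at chr2:67445752-67446051: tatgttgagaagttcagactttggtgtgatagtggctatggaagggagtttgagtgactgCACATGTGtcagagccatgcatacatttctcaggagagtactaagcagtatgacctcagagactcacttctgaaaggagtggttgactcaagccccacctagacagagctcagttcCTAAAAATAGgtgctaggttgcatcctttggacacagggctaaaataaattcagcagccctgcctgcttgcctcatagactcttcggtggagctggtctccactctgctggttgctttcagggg

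Treatment with TN-401 asked whether human PKP2 brought these levels towards WT. Against cKO, Cxadr was the only one of the 10 called at both doses in both ventricles in edgeR. In LV it was at 39.001, 42.5, 47.7 and 49.98 CPM at 3E13 and at 43.7, 44.4 and 44.9 CPM at 6E13, all above every cKO library and within or above the WT range. The differences from cKO were 0.67 ± 0.10 at 3E13 (adjusted p = 0.00231) and 0.65 ± 0.11 at 6E13 (adjusted p = 0.00174). In RV it was at 39.1 and 40.7 CPM at 3E13 and at 36.5, 42.4 and 43.7 CPM at 6E13. These differences were 0.71 ± 0.12 (adjusted p = 0.0106) and 0.73 ± 0.10 (adjusted p = 0.00069), and on log2(TPM + 1) all 4 kept their direction without passing the test. The 3E13 call in RV was lost without either of its 2 libraries.

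Tln2 rose at 6E13 in both ventricles. LV libraries were at 53.9, 54.6 and 58.6 CPM, above all cKO and below all WT libraries, a difference from cKO of 0.44 ± 0.10 (adjusted p = 0.00994) that turned to -0.01 on log2(TPM + 1). RV libraries were at 50.2, 56.5 and 63.2 CPM, a difference of 0.59 ± 0.13 (adjusted p = 0.00649) that was 0.0093 ± 0.16 on log2(TPM + 1) (adjusted p = 0.97). Rescaled TPM gave 0.29 ± 0.15 for LV (adjusted p = 0.212) and 0.42 ± 0.17 for RV (adjusted p = 0.0906), neither past the test. At 3E13 it was at 43.7, 44.9, 45.5 and 58.1 CPM in LV and 33.5 and 41.4 CPM in RV. These values had differences from cKO of 0.23 ± 0.10 (adjusted p = 0.129) and 0.01 ± 0.14 (adjusted p = 0.985).

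In the main edgeR fit, Cdh2 and Ctnna3 passed against cKO in RV at 6E13 only. Cdh2 was at 460.1, 518 and 519 CPM there, above all cKO libraries, a difference of 0.65 ± 0.15 (adjusted p = 0.00882). Its other differences from cKO were 0.46 ± 0.17 at 3E13 in RV (adjusted p = 0.0992), 0.30 ± 0.12 at 3E13 in LV (adjusted p = 0.113) and 0.38 ± 0.13 at 6E13 in LV (adjusted p = 0.0536). DESeq2 called Cdh2 higher than cKO in each of these, and edgeR on protein-coding genes alone did so at 6E13 in LV. Ctnna3 was at 75.4, 79.3 and 91.9 CPM in 6E13 RV, above all cKO and below all WT libraries, a difference of 0.61 ± 0.17 (adjusted p = 0.0208). That call was lost without 6E13 animal 631 or 645. Neither gene passed in 6E13 RV on log2(TPM + 1), with Cdh2 at 0.0875 ± 0.13 and Ctnna3 at 0.13 ± 0.12 (adjusted p = 0.612 and 0.409), while both passed on rescaled TPM, at 0.52 ± 0.11 and 0.56 ± 0.12 (adjusted p = 0.00556 and 0.00583). At 3E13 in RV it was at 59.2 and 61.8 CPM, within the cKO range, a difference of 0.19 ± 0.19 (adjusted p = 0.587).

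The genes that were higher in cKO LV did not pass against cKO at either dose in edgeR. On other scales some did. Vcl was lower than cKO on log2(TPM + 1) at 3E13 (-0.60 ± 0.16, adjusted p = 0.0153) and at 6E13 (-0.68 ± 0.17, adjusted p = 0.0109), and Xirp1 at 6E13 (-0.90 ± 0.24, adjusted p = 0.017), where the median of all genes was at -0.27 and -0.29. On rescaled TPM, Vcl (-0.38 ± 0.11, adjusted p = 0.0345) and Xirp1 (-0.60 ± 0.19, adjusted p = 0.0467) were lower at 6E13, and DESeq2 also called both lower there. Xirp1 was at 272, 313, 319 and 504 CPM at 3E13 and at 216, 246 and 299 CPM at 6E13. Its differences from cKO were -0.06 ± 0.19 (adjusted p = 0.865) and -0.53 ± 0.21 (adjusted p = 0.094). Xirp2 was at 1894, 2178, 2475 and 2710.0 CPM at 3E13 and at 1627, 1682 and 2033 CPM at 6E13, with differences of -0.15 ± 0.26 (adjusted p = 0.754) and -0.52 ± 0.28 (adjusted p = 0.215). Vcl was at 178 to 194 CPM at 3E13 and at 179 to 184 CPM at 6E13, a narrow range that lay within that of WT. Its differences from cKO were -0.23 ± 0.10 (adjusted p = 0.145) and -0.28 ± 0.11 (adjusted p = 0.0883). In RV, Xirp2 was at 1713 and 1914 CPM at 3E13 and at 1426, 1673 and 2482 CPM at 6E13, with differences from cKO of 0.52 ± 0.31 and 0.54 ± 0.27 (adjusted p = 0.315 and 0.186).

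In edgeR counts, the 3E13 LV group had 1 of the 10 genes higher than cKO, where 11.7% of all genes passed, and the 6E13 LV group 2, where 16.7% passed. In RV 1 was higher at 3E13 (8.58% of all genes passed) and 4 at 6E13 (22.0%), and none was lower in edgeR. None of the 10 passed as higher than cKO on log2(TPM + 1), and 2 passed as lower at each dose in LV, 6 at 3E13 in RV and 4 at 6E13 in RV, where the median of all genes lay between -0.27 and -0.40. Of all genes on that scale, 3422 of 16410 passed as lower at 3E13 in LV and 3717 at 6E13. In RV these were 5434 of 17307 and 6404. On rescaled TPM 1 of the 10 was higher at 3E13 in each ventricle, 1 was higher and 2 lower at 6E13 in LV, and 3 were higher at 6E13 in RV. Of all genes on rescaled TPM, 1347 of 13511 passed at 3E13 in LV and 2150 at 6E13. In RV these were 1500 of 13967 and 3304. Ctnnb1, Ctnna1 and Tjp1 did not pass against cKO in edgeR at either dose. Their LV differences lay between 0.08 ± 0.13 (Ctnna1 at 3E13) and 0.22 ± 0.13 (Tjp1 at 3E13), and their RV differences between -0.05 ± 0.10 (Ctnnb1 at 6E13) and 0.22 ± 0.14 (Ctnna1 at 6E13). All 4 comparisons share the cKO libraries with the comparison of cKO and WT.

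Against WT, Tln2 was lower at 3E13 in LV, at -0.57 ± 0.09 (adjusted p = 0.00398), and in RV, at -0.71 ± 0.16 (adjusted p = 0.0165). Ctnna3 was lower at 3E13 in RV only, at -0.78 ± 0.21 (adjusted p = 0.0392). These were 1 of 10 genes in LV, where 2.48% of all genes passed, and 2 of 10 in RV, where 7.40% passed. Both RV calls were lost without either 3E13 library, or without WT animal 637 or 647, and both Tln2 calls were lost on the TPM scales. The other genes against WT at 3E13 ran from -0.35 ± 0.21 (Ctnna3) to 0.60 ± 0.18 (Xirp1) in LV and from -0.26 ± 0.18 (Cdh2) to 0.70 ± 0.33 (Xirp2) in RV. At 6E13 edgeR called 0 of 10 against WT in either ventricle, where 0.0731% of all LV genes and 0.901% of all RV genes passed. At an unadjusted p under 0.05, 1 of 10 passed in each ventricle, and DESeq2 called 1 in LV and 0 in RV. Tln2 in 6E13 LV was at -0.36 ± 0.10 against WT (adjusted p = 0.341), with all 3 libraries below all 5 of WT. The others ran from -0.23 ± 0.23 (Ctnna3) to 0.19 ± 0.26 (Xirp2) in LV, and the 10 in RV from -0.35 ± 0.18 (Ctnna3) to 0.73 ± 0.30 (Xirp2). Between the doses edgeR called 0 of 10 in LV (0.0122% of all genes passed) and in RV (0.0462%), with 1 of 10 at an unadjusted p under 0.05 in each, and DESeq2 called 0 and 1. The Tln2 difference of 6E13 from 3E13 was 0.21 ± 0.10 in LV (adjusted p = 0.928) and 0.58 ± 0.15 in RV (adjusted p = 0.243), where all 3 libraries at 6E13 were above both at 3E13. The others ran from -0.47 ± 0.21 (Xirp1) to 0.12 ± 0.24 (Ctnna3) in LV and from -0.04 ± 0.12 (Ctnnb1) to 0.43 ± 0.20 (Ctnna3) in RV.

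**Figure D2:**
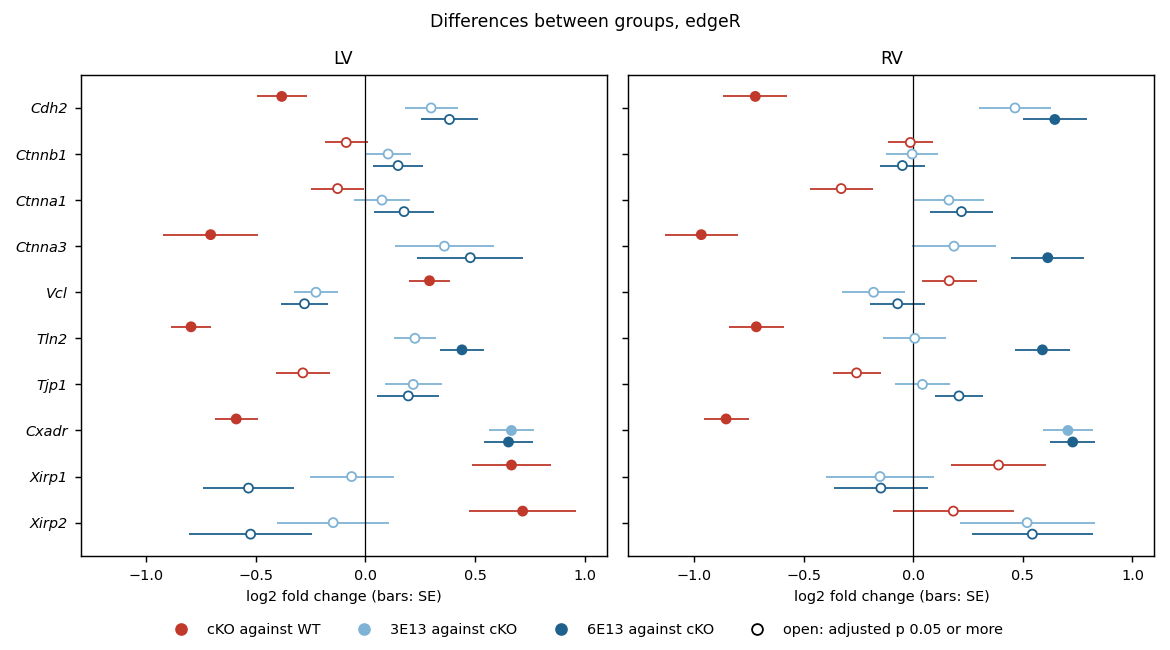
Log2 fold change (x axis) with SE bars for each of the 10 genes in cKO against WT and in each TN-401 dose against cKO, LV left and RV right. Filled points passed an adjusted p of 0.05 in edgeR. Cxadr is filled in all 6 places, at -0.59 and -0.85 in cKO against WT and between 0.65 and 0.73 after TN-401, and on log2(TPM + 1) its RV value in cKO against WT turned to 0.08.

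The ventricles of the same animal were compared with the animal as a block. In WT, 0 of 10 genes differed between RV and LV in edgeR, with 1 at an unadjusted p under 0.05 and 0.00556% of all genes past the test. In cKO, Cdh2 was lower in RV, at -0.40 ± 0.09 (adjusted p = 0.0239), and so was Xirp2, at -0.95 ± 0.23 (adjusted p = 0.0415). They were 2 of 10, where 4.35% of all genes passed. Cdh2 was lower in RV in 4 of 4 cKO animals and Xirp2 likewise. Without the block neither passed, both were lost without cKO animal 180 or 264, and Xirp2 was also lost without WT animal 636, 637 or 647. In the same comparison 6 of 7 fibroblast markers were higher in RV (median 0.95), 2 of 8 cardiomyocyte markers were lower (median -0.40), and their part in these differences was not tested. Xirp2 in WT had a difference of -0.58 ± 0.26 in the same direction (adjusted p = 0.589), and the others in WT ran from -0.34 ± 0.22 (Xirp1) to 0.21 ± 0.11 (Ctnna3). In cKO the other 8 ran from -0.66 ± 0.20 (Xirp1) to 0.10 ± 0.08 (Ctnnb1). A test of whether the cKO difference itself was unequal in the ventricles called 0 of 10 genes, with 1 at an unadjusted p under 0.05 and 0.0222% of all genes past the test. For Cdh2 that interaction was -0.37 ± 0.13 (adjusted p = 0.35), and for Xirp2 -0.37 ± 0.34 (adjusted p = 0.788).

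The choice of scale moved all 10 genes. On log2(TPM + 1), 5 of 10 were higher and 0 lower in cKO LV, and 6 higher and 0 lower in cKO RV, beside the upward shift of all genes. Ctnnb1 and Ctnna1 were among those higher in both ventricles there. Of all genes on that scale, 7224 of 16410 were higher and 583 lower in LV. In RV 9479 of 17307 were higher and 549 lower. After mitochondrial and non-coding genes were left out and TPM rescaled, 3 of the 10 were higher and 4 lower in LV, and 2 higher and 3 lower in RV. On that scale 4827 of 13511 genes passed in LV and 5730 of 13967 in RV, and the median of all genes was at 0.15 in LV and 0.27 in RV. Tln2 in RV was the fall that no longer passed, at -0.44 ± 0.17 (adjusted p = 0.057), and Vcl and Xirp1 passed as higher there. Relative to the median of all genes on log2(TPM + 1), Ctnna3 was at -0.66 in LV and -0.71 in RV, Tln2 at -0.56 and -0.42, Cxadr at -0.37 and -0.46 and Cdh2 at -0.20 and -0.40. Xirp1 was at 0.77 and 0.59, Vcl at 0.44 and 0.47 and Xirp2 at 0.80 and 0.45. The share of mitochondrial counts moved with the groups, as given above.

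**Figure D3:**
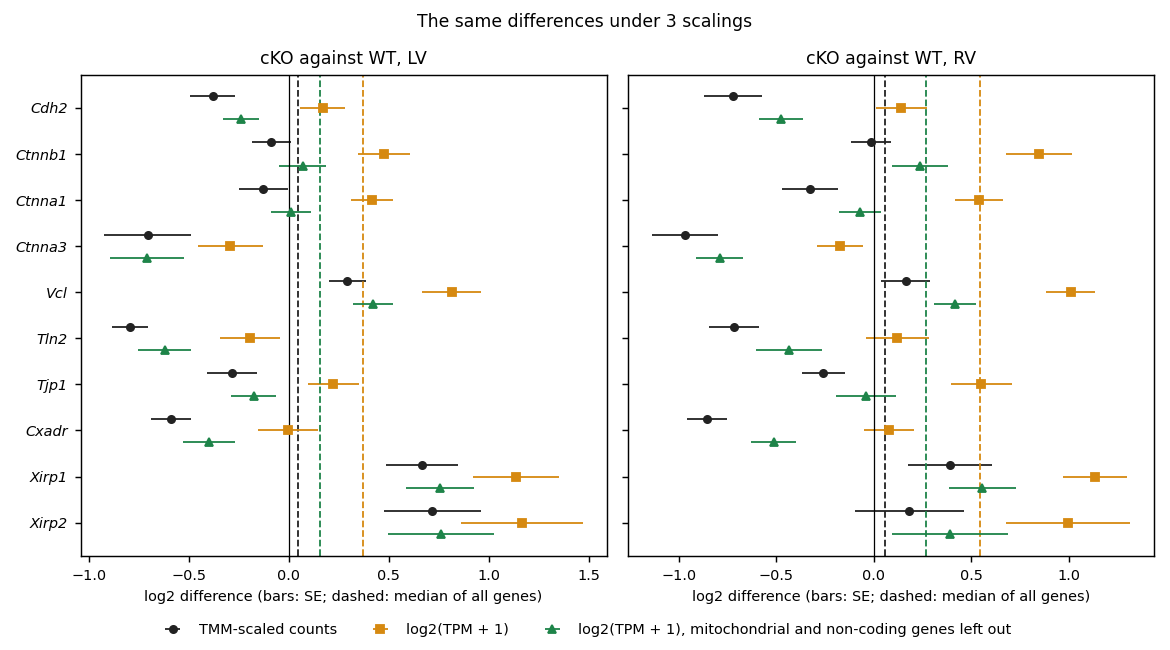
Log2 difference of cKO from WT (x axis) with SE bars for each of the 10 genes under 3 scalings, LV left and RV right, with dashed lines at the median of all genes on each scale. On TMM-scaled counts Cdh2 is at -0.38 and -0.72, and on log2(TPM + 1) at 0.17 and 0.14, where the medians of all genes are 0.37 and 0.54.

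Ratios of TPM between related genes within a library need no scaling between libraries. The ratio of Ctnna3 to Ctnna1 was 0.283 ± 0.024 (SD) in WT LV (n = 5) and 0.176 ± 0.051 in cKO LV (n = 4), without overlap (log2 difference -0.73, two-sided exact permutation p = 0.00794, adjusted p = 0.0794 over 20 tests). In RV it was 0.289 ± 0.0127 in WT and 0.175 ± 0.0193 in cKO, again without overlap (exact permutation p = 0.0286, adjusted p = 0.0816). At 6E13 in RV it was 0.244 ± 0.0181, above all cKO libraries (exact permutation p = 0.0286, adjusted p = 0.0816). In LV it overlapped cKO at 3E13, at 0.229 ± 0.0213 (exact permutation p = 0.0857, adjusted p = 0.214), and at 6E13, at 0.238 ± 0.0444 (exact permutation p = 0.171, adjusted p = 0.312). The ratio of Tln2 to Tln1, the talin of other cell types, was 0.184 ± 0.0194 in WT LV and 0.075 ± 0.0197 in cKO LV, a log2 difference of -1.33 (exact permutation p = 0.00794, adjusted p = 0.0794). In RV it was 0.167 ± 0.0372 and 0.0647 ± 0.00672. At 6E13 it lay above all cKO libraries in LV, at 0.132 ± 0.0229, and in RV, at 0.113 ± 0.0186 (exact permutation p = 0.0286 each, adjusted p = 0.0816). At 3E13 in LV it overlapped cKO, at 0.0816 ± 0.0152 (exact permutation p = 0.629, adjusted p = 0.838). Tln1 RNA also comes from the cell types whose markers rose in cKO.

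Xirp2 to Xirp1 was 3.77 ± 0.494 in WT LV and 4.04 ± 1.66 in cKO LV, where the libraries ranged from 2.04 to 5.54 (exact permutation p = 1, adjusted p = 1). The ratio of Jup, the desmosomal and area composita homologue of β-catenin, to Ctnnb1 was 1.01 ± 0.0819 in WT LV and 0.901 ± 0.178 in cKO LV (exact permutation p = 0.246, adjusted p = 0.396). The RV values were 0.931 ± 0.172 and 0.677 ± 0.143 (exact permutation p = 0.114, adjusted p = 0.229). None of the 20 tests passed after adjustment by the exact permutation test, and 7 had an unadjusted p under 0.05. The smallest p these designs allow is 0.00794 for cKO against WT in LV and 0.0286 elsewhere.

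**Figure D4:**
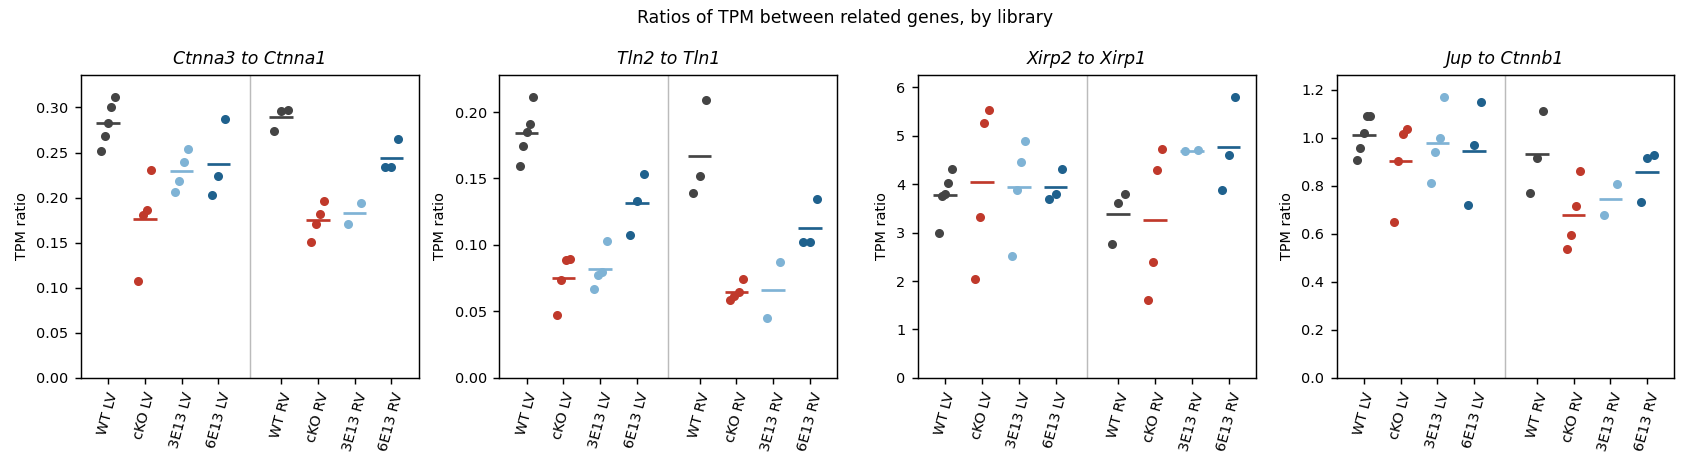
Ratio of TPM between related genes (linear axis from 0) in each of 28 libraries, by group and ventricle, with group means as bars. Tln2 to Tln1 lies between 0.159 and 0.211 in WT LV and between 0.0477 and 0.0896 in cKO LV, while the ranges of Xirp2 to Xirp1 in WT and cKO overlap in both ventricles.

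The average effective transcript length, which moves with the mix of transcript variants, was a readout apart from the level. None of the 10 genes differed in it between cKO and WT in limma, in LV (0.0670% of all genes passed) or in RV (1.18%). At an unadjusted p under 0.05 there was Cdh2 in LV, at -0.03 ± 0.01 on the log2 scale (adjusted p = 0.299), and Ctnna1 and Vcl in RV, at -0.03 ± 0.01 and -0.04 ± 0.01 (adjusted p = 0.184 and 0.101). Cxadr in RV was at -0.10 ± 0.05 (adjusted p = 0.303). The lengths of Ctnnb1 ran from 1694 to 2523 bases over the libraries.

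Genes around the junction moved in several directions in cKO against WT. Of 11 other cadherins and catenins tested, 4 rose and 2 fell in LV and 3 rose and 2 fell in RV. These were 54.5% and 45.5% of the list, and 35.7% and 37.2% of all genes passed in the same comparisons. Cdh3, P-cadherin, was at most at 0.0579 CPM in WT LV and at 0.104 to 2.93 CPM in cKO LV, and at most at 0.0783 CPM in WT RV and 1.17 to 4.10 CPM in cKO RV. Cdh1, E-cadherin, was at 0.139 to 2.93 CPM in cKO LV and at most at 0.0398 CPM in WT LV. The lowest cKO LV values of Cdh3 and Cdh1 lay under 0.155 CPM, the most that a count of 0 allows in any library. Cdh11, a cadherin of mesenchymal cells, rose by 1.46 ± 0.37 in LV (adjusted p = 0.0063) and 2.42 ± 0.36 in RV on the log2 scale. Ctnnd1, p120-catenin, which stabilises cadherins at the membrane, rose by 0.30 ± 0.07 and 0.40 ± 0.10. Cdh4, R-cadherin, fell by 1.97 ± 0.21 on the log2 scale in RV (adjusted p = 3.2e-05).

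The nectins are immunoglobulin-type adhesion molecules that bind afadin, and 3 of 5 genes of this list rose in each ventricle. This was 60% in each, beside 35.7% of all genes in LV and 37.2% in RV. Pvrl1, nectin-1, rose by 1.41 ± 0.19 in LV (adjusted p = 7.8e-05) and 1.44 ± 0.24 in RV, and Pvrl3, nectin-3, by 0.75 ± 0.12 and 0.86 ± 0.19. Pvrl4 rose by 1.83 ± 0.52 in LV, a call lost without cKO animal 177, and by 2.06 ± 0.48 in RV. Its level was at most 2.93 CPM.

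Of 27 other actin linkers and adaptors, 12 rose and 0 fell in LV, and 11 rose and 3 fell in RV. These were 44.4% and 51.9% of the list, beside 35.7% and 37.2% of all genes. Cttn, cortactin, which supports branched actin, rose by 0.85 ± 0.12 in LV and 1.03 ± 0.12 in RV. Pxn, paxillin, an adaptor of focal adhesions, rose by 1.01 ± 0.16 and 1.19 ± 0.17. The α-actinins of other cell types also rose, with Actn4 by 0.80 ± 0.15 and 0.88 ± 0.12 and Actn1 by 1.63 ± 0.21 in RV. Parva, parvin of the integrin-linked kinase complex, rose by 0.60 ± 0.11 in LV. Fibroblast and macrophage markers rose in the same libraries, and their part in these values was not tested.

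Of 15 other junction scaffolds and immunoglobulin receptors, 3 rose and 5 fell in LV and 2 rose and 3 fell in RV. These were 53.3% and 33.3% of the list, beside 35.7% and 37.2% of all genes. Magi3, a scaffold of cell contacts, was at -1.17 ± 0.14 in LV (adjusted p = 2.4e-05) and -1.25 ± 0.13 in RV, and Jam2, a junctional adhesion molecule, at -0.84 ± 0.16 and -1.01 ± 0.12. Clmp, a receptor of the same family as CAR, rose by 1.49 ± 0.20 and 2.18 ± 0.21. Cldn12, a claudin, was at -0.52 ± 0.11 and -0.82 ± 0.13, and turned to 0.14 and 0.16 on log2(TPM + 1). On that scale Jam2 was at -0.10 in both ventricles (adjusted p = 0.632 and 0.678) and Magi3 in RV at -0.36 (adjusted p = 0.109), which did not pass.

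Of the 4 desmosomal partners of Pkp2, 2 fell in LV and 4 in RV. These were 50% and 100% of the list, beside 35.7% and 37.2% of all genes. Dsc2, desmocollin-2, was at -0.62 ± 0.16 in LV (adjusted p = 0.0071) and -1.20 ± 0.20 in RV (adjusted p = 0.00055), and Dsg2, desmoglein-2, at -1.26 ± 0.25 in RV (adjusted p = 0.0021). Jup was at -0.29 ± 0.10 in LV (adjusted p = 0.042), a call lost in 7 of 9 fits that left out a library, and at -0.49 ± 0.13 in RV. Dsp, desmoplakin, was at -0.57 ± 0.18 in RV, a call lost without WT animal 637 or 647 or cKO animal 264. On log2(TPM + 1) Jup and Dsp turned to values above 0, at 0.38 and 0.32 in RV. On that scale Dsc2 in LV was at -0.17 ± 0.145 (adjusted p = 0.345), which did not pass.

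Integrins and the integrin-binding muscle protein melusin had 10 of 17 genes higher and 0 lower in LV and 13 higher and 2 lower in RV. This was 58.8% and 88.2% past the test, beside 35.7% and 37.2% of all genes. Itga11, a collagen receptor subunit of fibroblasts, rose by 2.30 ± 0.28 in LV. Itgb5 and Itgav, which pair as a vitronectin receptor, rose by 1.37 ± 0.17 and 0.88 ± 0.13 in LV and by 1.98 ± 0.13 and 1.17 ± 0.13 in RV. Itgb3, a further partner of Itgav, rose by 2.35 ± 0.25 in RV and Itga5, the fibronectin receptor subunit, by 1.35 ± 0.12. Itga4, found on leukocytes, rose by 1.88 ± 0.29 in LV. Summed macrophage markers, with 6 of 6 higher in each ventricle, were at 91.5 to 116 CPM in WT LV and 201.5 to 631 CPM in cKO LV. Their part and that of the fibroblast markers in the integrin values was not tested. Against cKO, 1 gene of this list rose and 4 fell at 3E13 in LV and 7 fell at 6E13, where 11.7% and 16.7% of all genes passed. In RV 5 fell at 3E13 (8.58% of all genes passed) and 1 rose and 9 fell at 6E13 (22.0%).

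**Figure D5:**
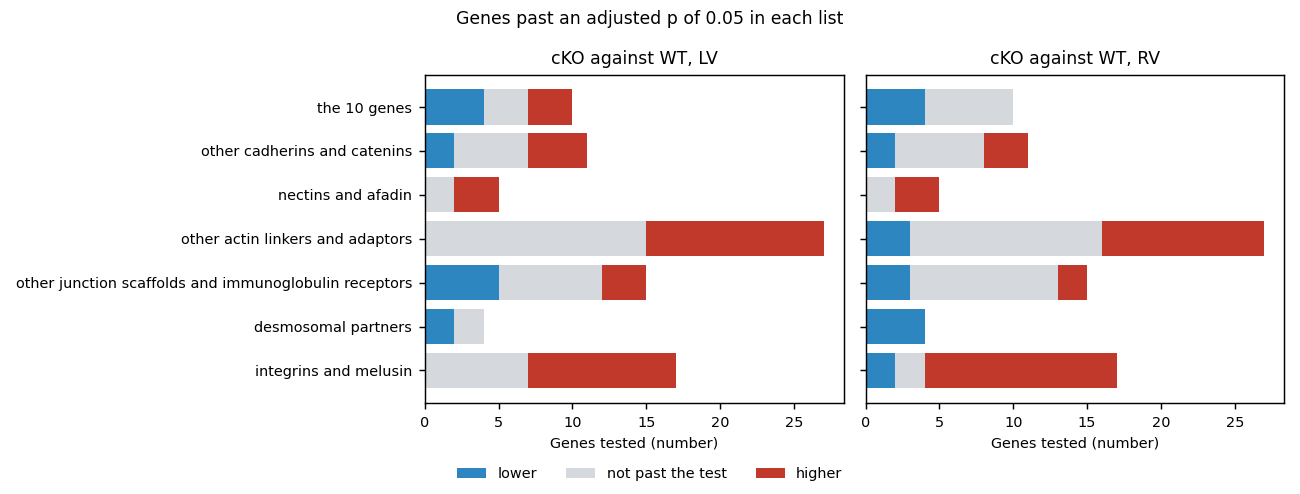
Number of genes tested in each list (x axis) that were lower, not past the test, or higher in cKO against WT at an adjusted p of 0.05 in edgeR, LV left and RV right. Integrins and melusin have 10 of 17 higher in LV and 13 in RV, and the 10 genes have 4 lower in each ventricle, of which Cdh2 (LV and RV), Tln2 and Cxadr (RV) turn direction on log2(TPM + 1).

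Over the 8 group means of log2 CPM, the gene with the profile nearest to that of Tln2 among 9761 genes was Osbpl1a (Pearson r = 0.991), followed by Klhl38 (0.985) and 3110043O21Rik (0.983). For Xirp2 these were Bcar1 (0.969), which encodes a focal adhesion adaptor, Dapk3 (0.961) and Rangap1 (0.957). The means share libraries and scaling, and the values are descriptions.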

How the data were processed

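RNA of 28 ventricle samples was sequenced. The labels name polyA RNA and also a stranded total RNA kit with rRNA depletion. The authors trimmed reads, estimated transcript abundance with Salmon 1.8.0 against GENCODE transcripts of GRCm39 with human PKP2 added, and summed it by gene symbol. The authors deposited estimated counts per gene, TPM, and the average effective transcript length in bases. The deposited TPM columns sum to 77.93% to 91.4% of a full TPM total. A row without a gene name, at most 0.000971% of counts, was left out.

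Here the counts were rounded and tested with edgeR 4.0.16 (R 4.3.3; quasi-likelihood F test, robust, filterByExpr, TMM) for each ventricle with 4 groups in a single fit, with Benjamini-Hochberg adjustment over 16410 genes in LV and 17307 in RV. Ventricles were compared over the 24 libraries of 12 animals with the animal as a block. The pairing comes from the animal number, and deviations of LV and RV from their group means correlated at 0.142 to 0.623 over 9834 genes, above 0.1 in all 12 animals. At 3E13 only 2 animals gave both ventricles, so their deviations mirror each other and both give 0.166. Ventricles of unlike animals were not compared in this way. SE was the log2 fold change divided by the root of F. Lengths were tested with limma 3.58.1 on log2 values centred on the library median, and TPM ratios with a two-sided exact permutation test. On log2 scales a pseudocount of 1 or 0.1 was added to TPM, which understates the change of low genes. DESeq2 1.42.0, other scalings, TPM without mitochondrial and non-coding genes, and fits without each library were alternatives. The edgeR script was tested on simulated data. Depth was 19364764 to 39381176 counts. No 2 libraries of a group were copies: the lowest chi-square per degree of freedom over 38 pairs was 17.87.

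The genes and lists were chosen with earlier results of these data known. By rule all 10 genes belong to every comparison, those without a call partly as a range, with Pkp2 and the transgene as a check of the labels. Of each of 6 pathway lists, up to 4 genes with the smallest adjusted p among those called in cKO against WT were named per ventricle, and for the genes with the largest LV rise and fall on TMM-scaled counts (Xirp2 and Tln2) the 3 genes with the most similar group means, at a mean of at least 5 CPM. Older symbols were matched for 6 list genes. Promoter windows came from RefSeq (GRCm38.p6), and 8 windows of 5 of the 10 genes were searched. Cdh2 and Ctnna1 were left out of this search.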

Additional observations from a re-analysis of the deposited data

Results flagged for a closer look

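In 3E13 LV, the Tln2 level of animal 253 was 58.08 CPM, far above the next library at 45.45 CPM. In cKO LV, the Tln2 level of animal 180 was 36.76 CPM, below the next library at 42.88 CPM, while the other 3 libraries lay within a narrow range. These were 2 of 40 groups of 4 or 5 libraries examined for a library far from the rest, and chance alone marks about 1 in 20.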

How the results depend on the processing

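Of 408 alternative values of the 24 called changes of the 10 genes, 330 kept direction and call, 68 kept direction only and 10 reversed; 255 of 293 alternative values of counts stayed close, counted in either direction. All reversals were on unrescaled TPM. With 1 or 0.1 added, Cdh2 in cKO against WT was 0.17 and 0.17 in LV and 0.14 and 0.14 in RV, Tln2 was 0.12 and 0.15 and Cxadr 0.080 and 0.088 in RV, and Tln2 at 6E13 against cKO in LV was -0.012 and -0.014.

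Fits of only the 2 groups compared called 4 of 10 genes in cKO against WT in LV, 0 at 3E13 and 1 at 6E13 against cKO in LV, 4 at 3E13 and 1 at 6E13 against WT in LV, and 0 at 3E13 against cKO in RV. Of all genes they called, in the same order, 4847 of 15349, 54 of 15203, 291 of 15712, 1773 of 14894, 217 of 15279 and 118 of 16477. DESeq2 called 2 and 5 of the 10 against cKO and 2 and 1 against WT in LV at these doses, 2 at 3E13 against cKO in RV and 1 between doses in RV. Of all genes it called 2980, 3672, 982 and 103 of 16410 in LV, and 2834 and 256 of 17307 in RV. On log2(TPM + 1), 3E13 had 2 of the 10 in LV and 6 in RV against cKO, all of them lower, and 0 and 1 against WT. Of all genes there, 3568 of 16410 and 5580 of 17307 passed against cKO, and 151 and 556 against WT. With 0.1 added 3E13 had 6 of the 10 in RV against cKO (5365 of all genes) and 0 and 1 against WT (196 and 920 of all genes). Rescaled TPM gave 0 and 1 of the 10 for 3E13 against WT, and sex read from expression as a covariate gave 1 in RV. Of all genes, rescaled TPM called 252 of 13511 in LV and 937 of 13967 in RV, and the sex covariate 1062 of 17307. Without the replicate block of the animal, 0 of 10 genes differed between ventricles in cKO, where 66 of 17981 genes passed. The cause of these differences was not tested.

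Leaving out each library gave 5 to 8 genes for cKO against WT in LV and 4 to 5 in RV, 1 to 3 at 3E13 and 2 to 5 at 6E13 against cKO in LV (the highest without cKO animal 180), 0 to 1 and 3 to 5 in RV, 1 to 1 and 0 to 2 at 3E13 against WT, and 0 to 2 between ventricles in cKO; the rest stayed at 0 to 0. Where 1 RV library was left at 3E13, it was assumed to vary like the other groups. Without the 2 cKO RV libraries with most Myl7, the count in cKO against WT stayed close. The number of all genes with a length difference in RV changed from 204 to 6 without centring. With 2 to 5 animals a group, small differences could not be detected.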
